A study of Homo sapiens with 26 samples.

Results

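The enzymes that make serine and pass its carbon to folate were followed in ZR751 breast tumors grown in mice and treated with atirmociclib, known as PF-07220060, which inhibits CDK4, a kinase that drives entry into the cell cycle. The set was given by name as 9 genes, PHGDH, PSAT1, PSPH, SHMT1, SHMT2, MTHFD1, MTHFD2, MTHFD1L and GLDC, and all 9 were found among the 30331 named entries of the expression table. ZR751 is a human breast cancer cell line that is positive for hormone receptors and negative for HER2, and it was implanted under the skin of female NSG mice, which are immunodeficient. Resistant tumors came from 5 mice dosed for 84 to 91 days with atirmociclib at 60 mg/kg, given by mouth 2 times a day at a 7 hour interval. Sensitive tumors came from 3 mice given the same dose for 3 days, and vehicle tumors from 5 mice given vehicle for 3 days, whose treatment label reads DMSO. All tumors descend from 1 cell line, dosing began at an average tumor volume of 150 mm3, and the 3-day tumors were taken 3 hours after the last dose. The resistant tumors belong to a separate study from which no vehicle mice were analysed here, so length of treatment and study cannot be told apart in the comparisons that use them.

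Serine is made in the cytosol by an oxidation, a transamination and a dephosphorylation, carried out by PHGDH, PSAT1 and PSPH. Serine hydroxymethyltransferases then split serine into glycine and a carbon unit carried by tetrahydrofolate, SHMT1 in the cytosol and SHMT2 in mitochondria. The carbon units feed the synthesis of purines and thymidylate, and PHGDH is known for its high copy number or expression in a share of breast cancers, mostly those that lack the estrogen receptor.

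Expression was measured by bulk RNA sequencing as TPM, a gene's share of all transcripts corrected for its length and scaled to a fixed total. Each mouse gave 2 libraries, A and B, which were averaged, so the mouse is the replicate. Values per mouse are listed in the order 9-3, 9-6, 9-7, 9-8 and 9-9 for resistant, 6-4, 6-5 and 6-6 for sensitive and 1-2, 1-4, 1-5, 1-6 and 1-9 for vehicle mice. The 26 libraries held 16914 to 17662 genes above 0, and the number of reads behind them is unknown. Summed TPM of 8 luminal epithelial markers was 10254 to 13757 in resistant, 7389 to 9513 in sensitive and 7974 to 12245 in vehicle tumors. All 4 endothelial markers and 6 of 7 fibroblast markers (all but COL1A1) were under 1 TPM in every mouse, and CD3E was at 0 in all 13. Summed TPM of 6 leukocyte markers, led by CD68, was 6.94 to 15.8 in resistant, 4.46 to 7.72 in sensitive and 3.17 to 6.33 in vehicle tumors. Summed TPM of 4 basal epithelial markers was 1.8 to 4.2 in resistant, 14.9 to 31.7 in sensitive and 4.98 to 17.1 in vehicle tumors. That of 4 adipocyte markers was at most 1.70 in every group. The graft is human and the host is mouse, so these human genes do not measure host vessels, fibroblasts, leukocytes or fat cells. Low values of such markers follow from the design and give no count of host cells. In bulk tissue, fewer cells of a type and less RNA per cell cannot be told apart.

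The summed TPM of 15 proliferation markers separated the groups without overlap, at 319 to 692 in resistant, 149 to 254 in sensitive and 968 to 1285 in vehicle tumors. Single markers did not all separate. At a limma adjusted p under 0.05, 15 were lower in sensitive than in vehicle tumors (12.6% of all genes). In resistant tumors 13 were higher than in sensitive tumors (9.56%), with 2 not called. Against vehicle, 9 were lower in resistant tumors (32.5%) and 6 were not called. The folate enzymes supply DNA synthesis, and the part of proliferation in the values of the 9 genes was not tested.

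PHGDH and MTHFD2 were lower in both treated groups than in vehicle tumors. SHMT1 was lower in sensitive tumors than in resistant and vehicle tumors, and GLDC was lower in resistant tumors than in sensitive and vehicle tumors. Of 26 alternatives run, 4 lost the SHMT1 call against vehicle, 3 its call against resistant tumors and 7 the GLDC call against sensitive tumors. The GLDC values of resistant and vehicle mice overlapped. Log2 changes are on the log2(TPM + 1) scale, which understates changes of low genes, and are given relative to the median change of all 14079 genes tested, with the SE and adjusted p of limma as fitted. As fitted, that median was -0.07 when sensitive tumors were set against vehicle, -0.05 when resistant tumors were set against sensitive and -0.14 when they were set against vehicle. The threshold for a call was 0.05 on the adjusted p (limma, Benjamini-Hochberg over the genes of a comparison, two-sided), and all 9 genes passed the filter on low values.

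In sensitive versus vehicle tumors 4 of the 9 genes fell (PHGDH, SHMT1, MTHFD1 and MTHFD2) and the other 5 were not called, where 12.6% of all genes tested were called lower and 3.16% higher. Between resistant and sensitive tumors SHMT1 rose, where 9.56% of all genes were called higher, and GLDC fell, where 11.6% were called lower. In resistant versus vehicle tumors 6 of 9 fell (PHGDH, PSAT1, PSPH, SHMT2, MTHFD2 and GLDC), where 32.5% of all genes were called lower and 11.5% higher. The median change of the 9 genes was -0.40 in sensitive versus vehicle, 0.05 in resistant versus sensitive and -0.38 in resistant versus vehicle tumors, where the median of all genes is set at 0. Without overlap between mice, the same 4 genes lay lower in sensitive than in vehicle tumors (16.4% of all genes did), GLDC lower (18.0%) and SHMT1 higher (12.3%) in resistant than in sensitive tumors, and PHGDH, PSPH and MTHFD2 lower in resistant than in vehicle tumors (20.6%). The comparisons share mice, so their changes are not independent.

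**Figure D1:**
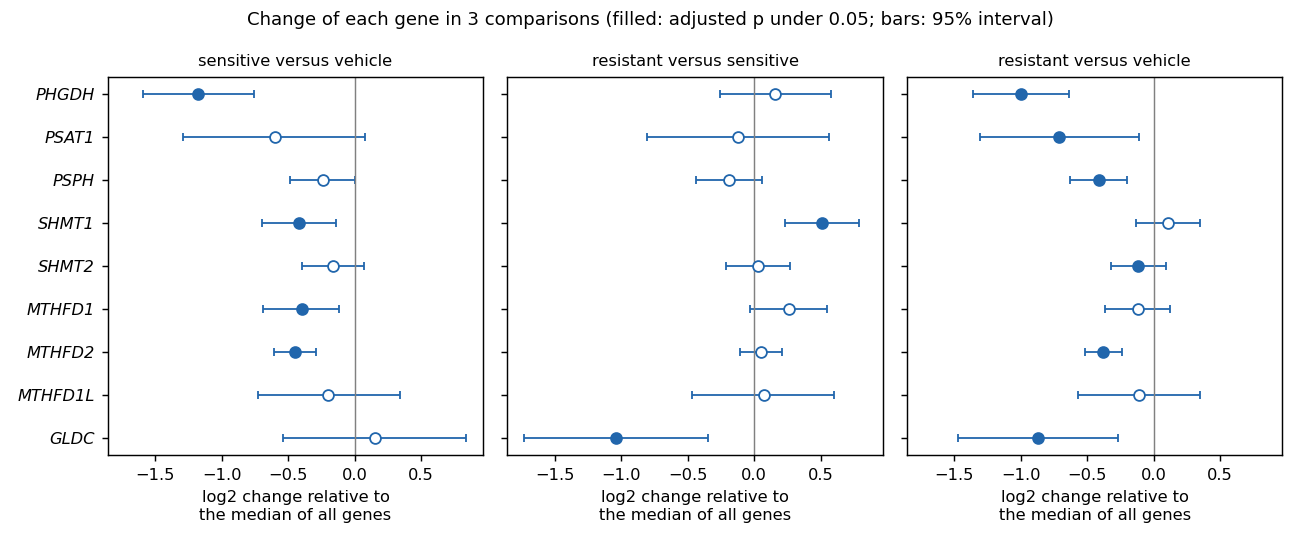
Log2 change of each gene relative to the median of all genes (horizontal axis) in 3 comparisons, with 95% intervals and filled points where the adjusted p is under 0.05. PHGDH is farthest left in sensitive versus vehicle tumors at -1.18, and GLDC in resistant versus sensitive tumors at -1.04.

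Scaling changed how the calls over all genes divided. Sensitive versus vehicle tumors had 445 genes called higher and 1767 lower. Median-of-ratios scaling gave 772 higher and 1063 lower there, and quantile normalization 938 higher and 989 lower. Resistant versus sensitive tumors had 1346 higher and 1631 lower, while median-of-ratios scaling gave 1718 higher and 1331 lower and quantile normalization 1461 higher and 1808 lower. Resistant versus vehicle tumors had 1624 higher and 4570 lower. Median-of-ratios scaling gave 2561 higher and 2433 lower for them, and quantile normalization 2330 higher and 2775 lower.

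By level, MTHFD2, SHMT2 and MTHFD1 led the 9 genes in every group, and PSAT1, GLDC and MTHFD1L were the lowest. Summed over the 9 genes, TPM was 305 ± 28.6 in resistant (n = 5), 294 ± 14.8 in sensitive (n = 3) and 421 ± 38.8 in vehicle tumors (n = 5; SD). The mice gave sums of 271 to 351 in resistant, 280 to 309 in sensitive and 361 to 462 in vehicle tumors, so each treated group lay wholly below the vehicle group. The sum follows the high genes, and PSAT1, GLDC and MTHFD1L add little to it. Of the 9 genes, 5 were not called in sensitive versus vehicle and 3 in resistant versus vehicle tumors. How often sums of other genes separate in this way was not computed. In vehicle tumors the order was MTHFD2, SHMT2, MTHFD1, PHGDH, SHMT1, PSPH, MTHFD1L, GLDC and PSAT1. Neighbours whose ranges met there were MTHFD1 and PHGDH, MTHFD1L and GLDC, and GLDC and PSAT1. PHGDH stood at 1.07 times the SHMT1 level in resistant tumors, with ranges that met, at 1.38 times in sensitive tumors and at 2.38 times in vehicle tumors. In resistant tumors GLDC was last, behind PSAT1, although the ranges of both met and PSAT1 was the higher in 2 of 5 mice.

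**Figure D2:**
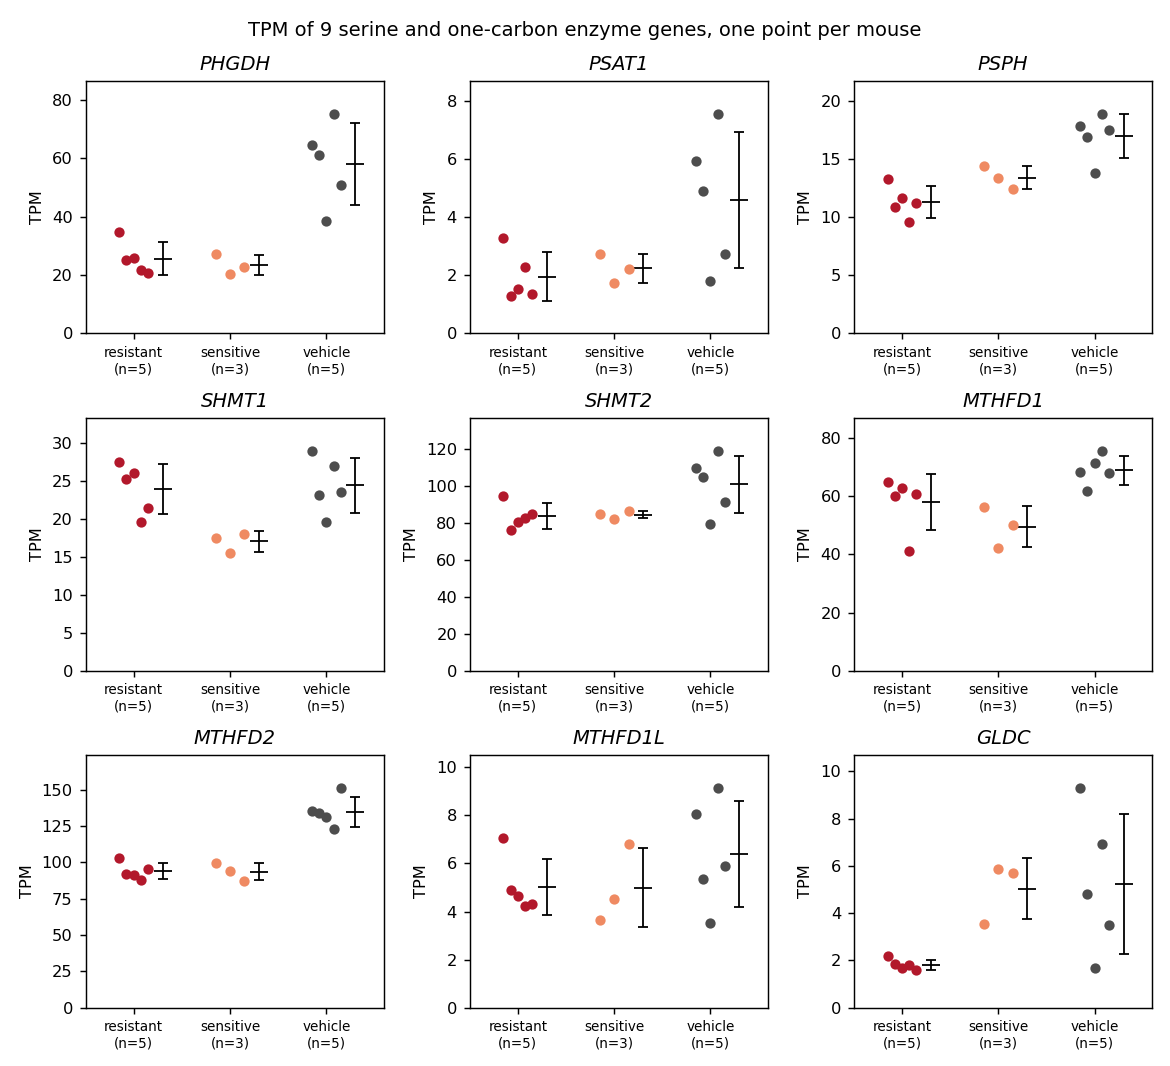
TPM (vertical axes, each starting at 0) of the 9 genes in resistant, sensitive and vehicle tumors, with 1 point per mouse and the mean ± SD beside the points. PHGDH lies at 20.4 to 34.7 TPM in the treated mice and at 38.5 to 75.2 TPM in vehicle mice, and the resistant GLDC values sit together at 1.59 to 2.17 TPM.

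The sequences before the transcription start are shown for PHGDH, MTHFD2, SHMT1 and GLDC. PHGDH and MTHFD2 were lower in both treated groups than in vehicle tumors, while between resistant and sensitive tumors SHMT1 rose and GLDC fell. The sequences are the 250 bases before the start from RefSeq (GRCh38.p14), in the direction of the gene, with capitals for matches to the motifs named below. PHGDH has chr1:119711684-119711933 (plus strand), MTHFD2 chr2:74198365-74198614 (plus strand), SHMT1 chr17:18363551-18363800 (minus strand) and GLDC chr9:6645730-6645979 (minus strand).
PHGDH: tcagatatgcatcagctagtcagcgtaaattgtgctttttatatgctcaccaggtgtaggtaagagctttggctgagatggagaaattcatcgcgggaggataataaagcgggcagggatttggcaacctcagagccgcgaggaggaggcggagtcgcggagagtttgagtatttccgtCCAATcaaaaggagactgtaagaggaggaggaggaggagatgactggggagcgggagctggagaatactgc
MTHFD2: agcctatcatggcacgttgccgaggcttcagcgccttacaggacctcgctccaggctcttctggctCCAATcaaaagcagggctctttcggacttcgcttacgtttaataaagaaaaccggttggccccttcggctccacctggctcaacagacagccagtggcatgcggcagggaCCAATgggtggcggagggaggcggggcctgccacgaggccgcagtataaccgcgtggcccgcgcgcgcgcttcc
SHMT1: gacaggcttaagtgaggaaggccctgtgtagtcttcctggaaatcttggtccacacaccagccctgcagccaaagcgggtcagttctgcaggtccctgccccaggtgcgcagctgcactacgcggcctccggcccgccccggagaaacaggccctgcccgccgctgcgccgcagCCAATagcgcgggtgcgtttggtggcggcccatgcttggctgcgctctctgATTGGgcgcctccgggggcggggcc
GLDC: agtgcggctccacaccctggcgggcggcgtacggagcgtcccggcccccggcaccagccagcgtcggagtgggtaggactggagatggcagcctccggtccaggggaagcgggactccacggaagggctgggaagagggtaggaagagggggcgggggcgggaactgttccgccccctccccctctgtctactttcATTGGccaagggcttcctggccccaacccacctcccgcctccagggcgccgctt

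The capitals in all 4 sequences are CCAAT boxes (CCAAT), the core bound by the factor NF-Y, written ATTGG where the match is on the other strand. Promoter entries, from 250 bases before to 50 bases after the start, were found for 7 of the 9 genes (all but PSPH and SHMT2), with 10 entries in all. CCAAT matched, on either strand, in all 7 genes and in 9 of 10 entries, against 34.6% of 34796 promoters of the same length. This motif was added after the sequences were read, so its count is a description of them. The element of ATF4 (TGATGNAA), the stress factor known to drive serine synthesis genes, matched in MTHFD1L alone, against 3.63% of all promoters. It matched at the same site in 3 overlapping entries of MTHFD1L. The E-box (CACGTG), which MYC can bind, matched in MTHFD1 and MTHFD1L, against 7.20%. The E-box and CCAAT matches of MTHFD1L are likewise shared by these 3 entries, so counts of entries repeat them. The E2F motifs TTTCGCGC and TTTGGCGC, held by 0.506% and 0.652% of promoters, matched in 0 of the 10 entries. Motifs this rare are seldom met in 10 entries, so this count carries no information about the 7 genes. For ATF4 too, a missing exact match in these short stretches does not show that a site is absent. No motif overlapped another in the sequences shown.

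PHGDH (chr1:119648411-119744226, plus strand, GENCODE 29 on GRCh38, as for all gene positions here) encodes the dehydrogenase that opens serine synthesis from a glycolytic intermediate. It had 34.7, 25.3, 25.9, 21.7 and 20.7 TPM in the resistant mice, against 27.1, 20.4 and 22.6 TPM in the sensitive mice. The vehicle mice had 64.4, 61.2, 38.5, 75.2 and 51.0 TPM. Every treated mouse lay below every vehicle mouse, and the treated groups overlapped. Sensitive tumors held 40.3% of the vehicle mean, a change of -1.18 ± 0.19 (SE; limma adjusted p = 0.000629). Resistant tumors held 44.2% of it, a change of -1.0 ± 0.17 (adjusted p = 0.000175). Between resistant and sensitive tumors the change was 0.16 with a 95% interval of -0.26 to 0.58 (limma adjusted p = 0.717), so a difference of either sign up to those bounds is not excluded.

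PSAT1 (chr9:78297143-78330093, plus strand), the aminotransferase of the next step, was the lowest gene in vehicle tumors and varied most there in relative terms along with GLDC. It had 3.29, 1.28, 1.54, 2.30 and 1.35 TPM in resistant mice, 2.75, 1.75 and 2.23 TPM in sensitive mice and 5.94, 4.90, 1.80, 7.56 and 2.75 TPM in vehicle mice. All 3 groups overlapped, since vehicle mice 1-5 and 1-9 lay within the range of the treated mice. PSAT1 was called lower in resistant than in vehicle tumors (-0.71 ± 0.28, limma adjusted p = 0.0243). That call was lost without any of resistant mice 9-6 and 9-9 or vehicle mice 1-2, 1-4 and 1-6 (adjusted p = 0.0534 to 0.0587), with median-of-ratios scaling (0.0584) and with the A libraries alone (0.0692). In sensitive versus vehicle tumors the change was -0.60 ± 0.32 (adjusted p = 0.169), and it passed without vehicle mouse 1-5, at -0.84 (adjusted p = 0.0365), and with weights per mouse, at -0.73 (0.0219).

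PSPH (chr7:56011051-56051604, minus strand), the phosphatase that releases serine, had 13.3, 10.9, 11.7, 9.57 and 11.2 TPM in resistant mice. It had 14.4, 13.4 and 12.4 TPM in sensitive mice and 17.9, 16.9, 13.8, 18.9 and 17.5 TPM in vehicle mice. The resistant mice were all below the vehicle mice, while the sensitive mice overlapped with both. The fall in resistant versus vehicle tumors was -0.41 ± 0.10 (limma adjusted p = 0.000757). In sensitive versus vehicle tumors the change was -0.24 ± 0.12 (adjusted p = 0.0784), which passed only without vehicle mouse 1-5 (0.0225) or with weights per mouse (0.00811). PSPH stood at 11.3 ± 1.34 TPM in resistant and 13.4 ± 1.01 TPM in sensitive tumors, a change of -0.19 that was not called (limma adjusted p = 0.167).

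SHMT1 (chr17:18327860-18363563, minus strand), the cytosolic hydroxymethyltransferase, had the resistant mean closest to its vehicle mean among the 9 genes in TPM, at 98.0%. Relative to all genes, MTHFD1L (-0.11), MTHFD1 (-0.12) and SHMT2 (-0.12) changed about as little in resistant versus vehicle tumors as SHMT1 did (0.11). SHMT1 had 27.5, 25.2, 26, 19.6 and 21.4 TPM in resistant mice, 17.5, 15.5 and 18.0 TPM in sensitive mice and 28.9, 23.1, 19.6, 26.9 and 23.5 TPM in vehicle mice. The sensitive mice lay below all others, and the resistant and vehicle ranges covered nearly the same span. SHMT1 fell in sensitive versus vehicle tumors (-0.42 ± 0.13, limma adjusted p = 0.0210) and rose in resistant versus sensitive tumors (0.51 ± 0.13, adjusted p = 0.0225). In resistant versus vehicle tumors the change was 0.11 with a 95% interval of -0.13 to 0.35 (adjusted p = 0.859), and it was -0.03 as fitted. The fall was not called without sensitive mouse 6-5 (adjusted p = 0.116) or 6-6 (0.0524), with median-of-ratios scaling (0.0683) or with quantile normalization (0.0940). The rise was not called without sensitive mouse 6-4 (0.0606) or 6-5 (0.101) or with the A libraries alone (0.0549).

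SHMT2 (chr12:57229327-57234935, plus strand), its mitochondrial counterpart, stood at 76.1 to 94.6 TPM in resistant, 82.4 to 86.5 TPM in sensitive and 79.5 to 119 TPM in vehicle tumors. The groups overlapped, with means of 83.8 ± 6.89 TPM in resistant, 84.6 ± 2.05 TPM in sensitive and 101 ± 15.6 TPM in vehicle tumors. SHMT2 was called lower in resistant than in vehicle tumors at a limma adjusted p of 0.0453, with a change of -0.25 as fitted and of -0.12 relative to all genes, whose 95% interval ran from -0.32 to 0.09. This call held under 10 of 26 alternatives, with adjusted p from 0.00443 to 0.468, and 10 of the 13 mice ended it when left out, with adjusted p from 0.0546 to 0.105. The exceptions were mice 1-5, 1-9 and 9-3. In sensitive versus vehicle tumors the change was -0.16 (adjusted p = 0.165), and it passed without vehicle mouse 1-5, at -0.26 (0.0282), and with weights per mouse, at -0.17 (0.0251).

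Setting both enzymes of the same step side by side, the mitochondrial SHMT2 exceeded the cytosolic SHMT1 by 1.78 ± 0.21 in resistant, 2.26 ± 0.07 in sensitive and 2.00 ± 0.11 in vehicle tumors, as a difference in log2(TPM + 1). The sensitive mice, at 2.21 to 2.34, lay above the resistant mice, at 1.56 to 2.04, and the vehicle mice, at 1.9 to 2.13. The exact two-sided permutation p was 0.0357 for each of these separations, and 0.143 after adjustment over the 12 such tests. With 3 against 5 mice the smallest possible p is 0.0179, which standing alone among 12 tests adjusts to 0.214. With 5 against 5 mice the smallest is 0.00794, which adjusts to 0.0952, so no single pair could pass on its own in this design. The difference of PSAT1 minus PHGDH was -3.19 ± 0.29 in resistant, -2.91 ± 0.05 in sensitive and -3.48 ± 0.32 in vehicle tumors. On this scale sensitive and vehicle mice did not overlap, with a permutation p of 0.0357 (exact) and an adjusted p of 0.143. PSAT1 is low, so the added 1 weighs on this difference. With a pseudocount of 0.1 the change was 0.44 in place of 0.57, with an adjusted permutation p of 0.398.

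**Figure D3:**
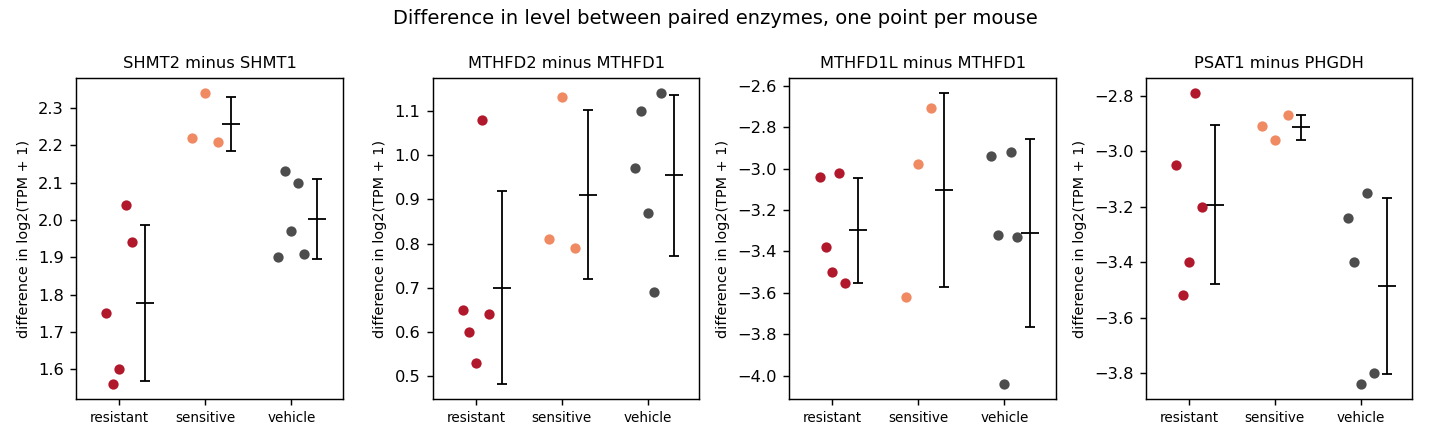
Difference in log2(TPM + 1) between paired enzymes (vertical axes, which do not start at 0) in resistant, sensitive and vehicle tumors, with 1 point per mouse and the mean ± SD. For SHMT2 minus SHMT1 the sensitive mice, at 2.21 to 2.34, stand above all other mice, and for MTHFD2 minus MTHFD1 resistant mouse 9-8, at 1.08, stands apart from its group.

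MTHFD1 (chr14:64388031-64463457, plus strand) carries 3 activities of the cytosolic folate pathway on 1 protein and passes carbon units to purine synthesis. It had 65.1, 60.3, 62.8, 41.2 and 60.9 TPM in resistant mice, 56.3, 42.3 and 50.1 TPM in sensitive mice and 68.4, 62.0, 71.4, 75.6 and 67.9 TPM in vehicle mice. The sensitive mice were all below the vehicle mice, and resistant mouse 9-8 lay below every sensitive mouse. MTHFD1 fell in sensitive versus vehicle tumors (-0.40 ± 0.13, limma adjusted p = 0.0279), a call lost without sensitive mouse 6-5 (0.168) or 6-6 (0.0846) and with median-of-ratios scaling (0.0692) or quantile normalization (0.0711). The change was 0.26 ± 0.13 in resistant versus sensitive tumors (adjusted p = 0.271), and without mouse 9-8 it was 0.38 and passed (0.0266). Against vehicle, it was -0.12 ± 0.12 in resistant tumors (limma adjusted p = 0.0816) and passed in the fits over 26 libraries, at 0.0145 with the mouse as a random effect and 0.0167 with the letter as a replicate block added.

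MTHFD2 (chr2:74198562-74217565, plus strand), the mitochondrial dehydrogenase and cyclohydrolase that is low in most adult tissues and high in many tumors, was the highest of the 9 genes in each group. It had 103, 91.7, 91.4, 88.2 and 95.2 TPM in resistant mice and 99.3, 93.8 and 87.5 TPM in sensitive mice, against 135, 134, 131, 123 and 151 TPM in vehicle mice. The treated mice all lay below the vehicle mice and the treated groups covered nearly the same span. Its fall was -0.45 ± 0.07 in sensitive versus vehicle (limma adjusted p = 0.000313) and -0.38 ± 0.06 in resistant versus vehicle tumors (4.88e-05), or 69.3% and 69.6% of the vehicle mean. Resistant versus sensitive tumors gave 0.05 with a 95% interval of -0.11 to 0.21 (limma adjusted p = 0.971).

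The calls of PHGDH and MTHFD2 against vehicle held under all 26 alternatives run, as did those of PSPH and GLDC in resistant versus vehicle tumors. Over these alternatives the adjusted p of PHGDH ran from 5.35e-07 to 0.00695 in sensitive and from 1.06e-07 to 0.000933 in resistant versus vehicle tumors. That of MTHFD2 ran from 9.11e-07 to 0.00367 in sensitive and from 4.25e-08 to 0.000301 in resistant versus vehicle tumors. For resistant versus vehicle tumors that of PSPH ran from 0.000203 to 0.00986 and that of GLDC from 0.000413 to 0.0263.

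MTHFD1L (chr6:150865549-151101887, plus strand), which releases formate from the mitochondrial pathway, was called in none of the 3 comparisons. It stood at 5.03 ± 1.16 TPM in resistant (n = 5), 5.00 ± 1.64 TPM in sensitive (n = 3) and 6.39 ± 2.22 TPM in vehicle tumors (n = 5; SD). Its changes were -0.20 in sensitive versus vehicle (limma adjusted p = 0.496), 0.07 in resistant versus sensitive (0.959) and -0.11 in resistant versus vehicle tumors (0.363). The 95% intervals ran from -0.73 to 0.34 in sensitive versus vehicle, from -0.47 to 0.60 in resistant versus sensitive and from -0.57 to 0.35 in resistant versus vehicle tumors. As a difference in log2(TPM + 1), MTHFD2 minus MTHFD1 was 0.70 ± 0.22 in resistant, 0.91 ± 0.19 in sensitive and 0.96 ± 0.18 in vehicle tumors. MTHFD1L minus MTHFD1 was -3.30 ± 0.25 in resistant, -3.10 ± 0.47 in sensitive and -3.31 ± 0.45 in vehicle tumors. Over these 6 comparisons the adjusted p of the exact permutation test lay between 0.210 and 0.976, in a design where a single pair could not pass.

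GLDC (chr9:6532464-6645783, minus strand) encodes the decarboxylase of the mitochondrial glycine cleavage system, which passes a carbon of glycine to folate. It had 2.17, 1.85, 1.70, 1.79 and 1.59 TPM in resistant mice, 3.54, 5.86 and 5.70 TPM in sensitive mice and 9.28, 4.79, 1.69, 6.94 and 3.49 TPM in vehicle mice. The resistant mice lay together below all sensitive mice, and vehicle mouse 1-5 lay among them while the other vehicle mice were above. GLDC fell in resistant versus sensitive tumors (-1.04 ± 0.32, limma adjusted p = 0.0294) and in resistant versus vehicle tumors (-0.87 ± 0.28, 0.0103). The first call was lost without resistant mice 9-6 (0.0517), 9-7 (0.0504) or 9-9 (0.050) or sensitive mice 6-5 (0.111) or 6-6 (0.0926), with no filter (0.0546) and with the A libraries alone (0.0557). In sensitive versus vehicle tumors the change was 0.15 with a 95% interval of -0.54 to 0.84 (adjusted p = 0.904), and -0.13 without vehicle mouse 1-5.

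Transcripts for the other 3 proteins of the glycine cleavage system were also measured. GCSH, which encodes the carrier of the intermediate, had 38.1 ± 2.83 TPM in resistant, 47.4 ± 3.83 TPM in sensitive and 45.0 ± 5.56 TPM in vehicle tumors. It was called lower in resistant than in sensitive (-0.26, limma adjusted p = 0.0430) and vehicle tumors (-0.09, 0.0451). DLD, the dehydrogenase of the system, was called lower in resistant than in vehicle tumors, at 44.2 ± 3.54 TPM against 52.8 ± 3.41 TPM (-0.11 ± 0.08, limma adjusted p = 0.0266), without overlap between mice (20.6% of all genes). It had 47.5 ± 7.44 TPM in sensitive tumors. Both calls against vehicle test the change as fitted, where the median of all genes was -0.14. AMT, the aminomethyltransferase, was higher in sensitive than in vehicle tumors, at 4.93 ± 0.792 TPM against 2.83 ± 0.687 TPM (0.72 ± 0.19, limma adjusted p = 0.0340). In resistant tumors AMT had 3.80 ± 0.916 TPM and was not called against vehicle (0.47, limma adjusted p = 0.114) or sensitive tumors (-0.27, 0.261).

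Some mice stood high or low for several of the 9 genes. Resistant mouse 9-3 was the highest of its group for 9 of 9 genes, with a median deviation of 0.21 from the group mean on the log2 scale, while mouse 9-8 was the lowest for 5 and had a median of -0.19. Vehicle mouse 1-5 was the lowest for 7 of 9 genes (all but MTHFD1 and MTHFD2), with a median of -0.33, and vehicle mouse 1-6 was the highest for 6 and the lowest for MTHFD2, with a median of 0.25. Sensitive mouse 6-4 was the highest for 5 genes and the lowest for MTHFD1L and GLDC, and mouse 6-5 was the lowest for 5 and the highest for GLDC. Proliferation marker sums were 679 TPM in mouse 9-3 and 319 TPM in mouse 9-8, where the other resistant mice had 477 to 692 TPM. They were 985 TPM in mouse 1-5 and 1285 TPM in mouse 1-6, where the other vehicle mice had 968 to 1182 TPM. The sums were 236 TPM in mouse 6-4 and 149 TPM in mouse 6-5, against 254 TPM in mouse 6-6. Whether these sums bear on the spread between mice was not tested.

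**Figure D4:**
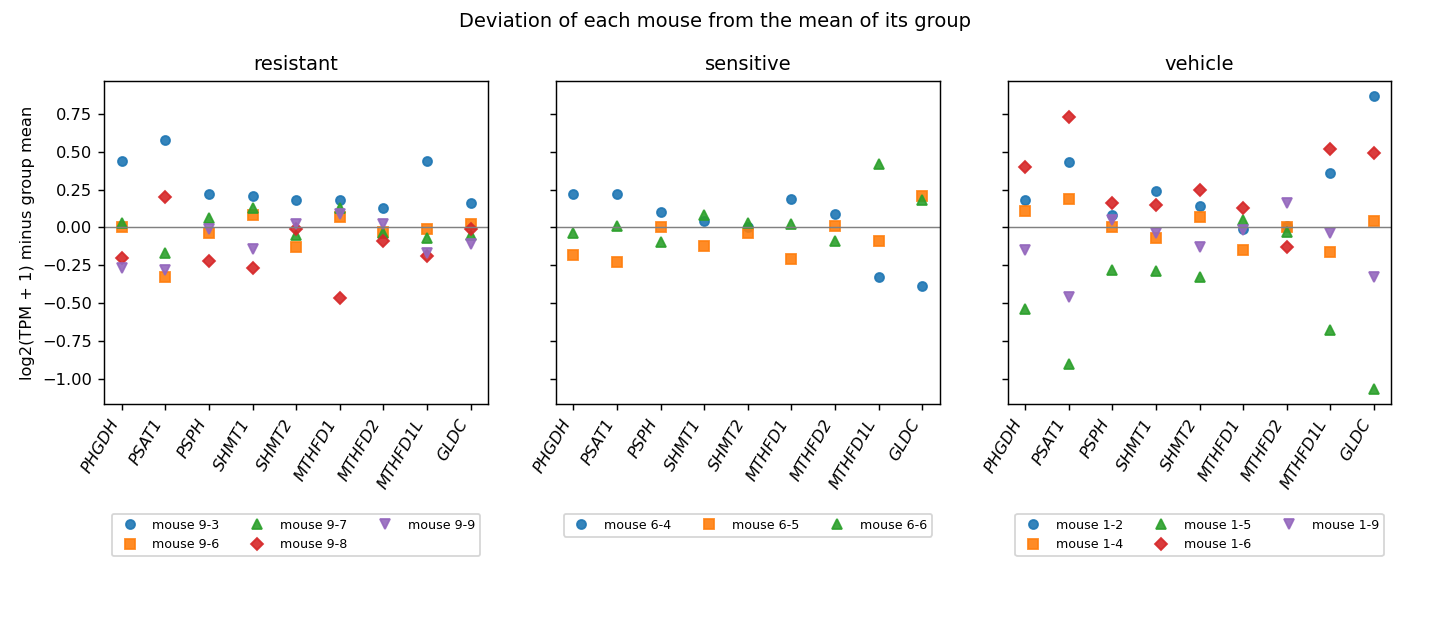
Deviation of each mouse from its group's mean log2(TPM + 1) (vertical axis) for the 9 genes, with 1 symbol per mouse. Resistant mouse 9-3 is on top for all 9 genes and vehicle mouse 1-5 is at the bottom for 7.

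Libraries A and B of a mouse give the spread between libraries, from whichever step they were divided. Their median absolute difference on the log2 scale was 0.02 for MTHFD1, 0.03 for SHMT2, 0.06 for MTHFD2 and 0.07 for PHGDH, against SDs between mice of 0.20 for MTHFD1, 0.16 for SHMT2, 0.09 for MTHFD2 and 0.30 for PHGDH. For PSPH the libraries differed by 0.19, with an SD between mice of 0.15. The first compares single libraries and the second means of A and B, so their sizes cannot be ranked directly. Among the low genes the median was 0.10 for PSAT1, 0.16 for GLDC and 0.18 for MTHFD1L. The largest differences of a mouse were 0.56 for PSAT1, 0.49 for GLDC and 0.71 for MTHFD1L. SDs between mice were 0.50 for PSAT1, 0.50 for GLDC and 0.38 for MTHFD1L. GENCODE annotates 7 pseudogenes named after MTHFD2, 4 after PSAT1 and 1 each after PSPH, SHMT1, MTHFD1 and GLDC. The sources used here do not say how reads shared with such copies were assigned, so the levels of these 6 genes are uncertain to that extent.

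By the likeness of profiles over the 13 mice, measured as the root mean square (RMS) difference of centred log2(TPM + 1) values, the genes nearest PHGDH were HSPA4L, a heat shock protein of the HSP70 family (0.129), ANP32E, a histone chaperone (0.189), and DLGAP3 (0.197). The RMS of the profile itself, with which this distance scales, was 0.634 for PHGDH, 0.266 for MTHFD2, 0.256 for MTHFD1, 0.261 for SHMT1, 0.583 for PSAT1 and 0.669 for GLDC. HSPA4L had 2.05 TPM in resistant, 2.04 TPM in sensitive and 6.11 TPM in vehicle tumors. MTHFD2 was nearest MDH1, the cytosolic malate dehydrogenase (0.080), which had 108 TPM in resistant, 109 TPM in sensitive and 144 TPM in vehicle tumors. MTHFD1 was nearest DUT, which removes dUTP (0.070), and SMC1A, a cohesin subunit (0.087). SHMT1 was nearest NDC1, a nuclear pore protein (0.098), with 16.5 TPM in resistant, 12.7 TPM in sensitive and 18.5 TPM in vehicle tumors. PSAT1 was nearest UGT8 (0.218) and GLDC was nearest OLFM2 (0.273).

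Among 16 other serine and glycine genes tested, 3 were called higher and 6 lower in resistant versus vehicle tumors, with a median change of 0.03. Of all genes, 11.5% were called higher and 32.5% lower in that comparison. SLC1A4, a transporter of serine and alanine, rose to 182 ± 24.7 TPM in resistant tumors, against 70.2 ± 13.1 TPM in sensitive (1.41 ± 0.14, limma adjusted p = 0.000114) and 69.2 ± 9.75 TPM in vehicle tumors (1.52 ± 0.13, 3.72e-06). SLC6A9, a glycine transporter, rose to 18.3 ± 7.98 TPM in resistant tumors, against 5.05 ± 1.94 TPM in sensitive (1.67 ± 0.30, 0.00283) and 4.15 ± 0.501 TPM in vehicle tumors (1.94 ± 0.26, limma adjusted p = 0.000139). The mitochondrial serine carrier family member SFXN3 was at 41.5 TPM in resistant and 23.6 TPM in vehicle tumors (0.94, limma adjusted p = 0.000225). SPTLC2, a subunit of the enzyme that joins serine to a fatty acid, fell to 50.7 TPM in resistant tumors, against 102 TPM in sensitive and 113 TPM in vehicle tumors. Of these genes 3 were called higher and 2 lower in resistant versus sensitive tumors (9.56% of all genes higher, 11.6% lower). AMT was the 1 gene called in sensitive versus vehicle tumors (3.16% of all genes higher, 12.6% lower).

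Among 14 other folate genes tested, 4 fell in sensitive versus vehicle tumors, TYMS and GGH among them, with a median of 0.00 for the list. The share of all genes called lower there was 12.6%. TYMS, which makes thymidylate, had 15.4 ± 7.27 TPM in sensitive and 127 ± 20.2 TPM in vehicle tumors (-3.0 ± 0.32, limma adjusted p = 1.40e-05). GGH, which trims folate polyglutamates, had 8.77 ± 0.442 TPM in sensitive and 30.5 ± 4.86 TPM in vehicle tumors (-1.61 ± 0.17, limma adjusted p = 1.01e-05). In resistant versus sensitive tumors 5 rose and 1 fell (9.56% of all genes higher, 11.6% lower). Among those that rose were TYMS at 52.8 ± 17.3 TPM in resistant tumors (1.81, limma adjusted p = 0.00257) and GGH at 21.3 ± 5.05 TPM (1.21, 0.000726). Against vehicle, resistant tumors had 2 that rose and 3 that fell (11.5% of all genes higher, 32.5% lower), and TYMS was lower (-1.17, limma adjusted p = 0.00213).

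Of 13 genes of purine synthesis, which uses the carbon units, 3 fell in sensitive versus vehicle tumors, with a median of -0.06 (12.6% of all genes were called lower). Between resistant and sensitive tumors 2 rose and 3 fell, with a median of -0.13 (9.56% of all genes higher, 11.6% lower). Against vehicle, 2 rose and 7 fell in resistant tumors, with a median of -0.18 (11.5% of all genes higher, 32.5% lower). ATIC, which uses a formyl group from folate, fell to 145 TPM in sensitive (-0.29, limma adjusted p = 0.0395) and to 123 TPM in resistant tumors (-0.46, 0.000312), against 187 TPM in vehicle tumors. Of 10 methionine cycle genes, 2 rose and 2 fell in resistant versus vehicle tumors, with a median of 0.09. In resistant versus sensitive tumors 2 rose and 1 fell, with a median of 0.03, and in sensitive versus vehicle tumors 2 fell, with a median of 0.02. The shares of all genes given above for each comparison apply to these counts too.

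ATF4 is known to drive transcription of PHGDH, PSAT1, SHMT2 and MTHFD2 under amino acid shortage. ATF4 mRNA was at 357 ± 46.5 TPM in resistant, 310 ± 16.5 TPM in sensitive and 337 ± 34.7 TPM in vehicle tumors and was called in no comparison (limma adjusted p between 0.216 and 0.509), and it was singled out after the values were seen. Of 23 genes of ATF4 and its other targets, 1 rose and 2 fell in sensitive versus vehicle tumors, with a median of -0.05. Of all genes, 3.16% were called higher and 12.6% lower there. In resistant versus sensitive tumors 2 rose and 2 fell, with a median of 0.24 (9.56% of all genes higher, 11.6% lower). Against vehicle, 5 rose, 1 fell and 17 were not called in resistant tumors, with a median of 0.21 (11.5% of all genes higher, 32.5% lower). The gene that fell was XPOT, at 84.4 TPM in resistant and 105 TPM in vehicle tumors (-0.17, limma adjusted p = 0.00416). STC2, a secreted glycoprotein, was at 103 ± 30.1 TPM in resistant and 18.1 ± 12.1 TPM in vehicle tumors (2.75 ± 0.43, limma adjusted p = 0.000343). In sensitive tumors STC2 was at 45.9 ± 25.6 TPM, not called against vehicle (1.38, limma adjusted p = 0.0872) or resistant tumors (0.0712). GDF15, a stress cytokine, was at 19.8 TPM in resistant and 6.28 TPM in vehicle tumors (1.61, limma adjusted p = 0.00361), with overlap between mice. It was at 5.40 TPM in sensitive tumors, below resistant tumors (limma adjusted p = 0.0128).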

How the data were processed

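The deposited table gives TPM for 26 libraries, a unit made by the authors, with sums of 999850 to 999889 per library. Per the submitters' processing notes, the builds were GRCh38 and GRCm38 and the tools were RSEM, HTSeq, STAR and FastQC, of which neither versions nor roles are stated. The sources used here do not say how mouse reads were removed or where libraries A and B were divided. The values are TPM without counts, so depth is unknown and no counting interval is given.

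Of 30332 entries, 30331 carry a name and were used. The log2(TPM + 1) values of A and B were averaged per mouse, and 14079 genes that reached a mean of 1 TPM in 3 or more mice were tested. limma 3.58.1 (R 4.3.3) with the trend option fitted all 13 mice in 1 model with 3 groups, and p-values were adjusted by Benjamini-Hochberg over all genes of a comparison. Differences between enzymes were tested with exact two-sided permutation tests over mice, adjusted over 12 tests. A and B correlated at 0.995 to 0.997 across genes, which are not independent replicates, and all 26 libraries were closest to their own partner. All samples carry batch label 1.

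The 9 genes and the companion and marker lists were chosen with earlier results of these data known. From each companion list up to 4 called genes per comparison were eligible to be named, by adjusted p, and each called member's 3 nearest profiles, of which some are named. Some genes that the rule takes are in the fits and counts and are not reported here by name. GCSH, DLD and ATF4 fall outside that rule and were named after their values were seen. Alternatives covered the pseudocount, the filter, scaling, the samples in the fit, weights, the libraries used and leaving out each mouse.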

Additional observations from a re-analysis of the deposited data

Results flagged for a closer look

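Of 26 combinations of a group and a value screened for a mouse far from the others of its group, 3 stood out, where chance alone gives about 1 in 20. MTHFD1 in resistant mouse 9-8 was 41.2 TPM, where the other resistant mice had 60.3 to 65.1 TPM. The difference of MTHFD2 minus MTHFD1 in the same mouse was 1.08 on the log2 scale, where the others had 0.53 to 0.65, and it holds the same MTHFD1 value. MTHFD1L in resistant mouse 9-3 was 7.05 TPM, where the other resistant mice had 4.22 to 4.91 TPM. Groups of 3 mice were not screened.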

How the results depend on the processing

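Of 699 values of the 9 genes under 26 alternatives, 642 kept direction and side of the threshold, 41 lost a call, 9 gained one and 7 changed sign. Genes called in sensitive versus vehicle tumors numbered 2212, and 4413 with weights per mouse. Without 1 mouse they numbered 901 (without 6-5) to 2417, with 1074 without 6-6. In resistant versus sensitive tumors they numbered 2977, and 1474 (without 6-5) to 3571 without 1 mouse, with 1580 without 6-4. Members called in sensitive versus vehicle tumors numbered 4, 2 with median-of-ratios scaling or quantile normalization, 7 with weights per mouse, and 2 (without 6-5 or 6-6) to 7 (without 1-5) without 1 mouse. In resistant versus sensitive tumors they numbered 2, 1 with no filter, 0 by limma with the A libraries alone (2 at an unadjusted p under 0.05), and 0 (without 6-5, where 2 passed unadjusted) to 3 (without 9-8) without 1 mouse, with 1 without 6-4, 6-6, 9-6, 9-7 or 9-9. Against vehicle, 6 members were called in resistant tumors, and 4 to 6 without 1 mouse.

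Values that changed sign were not called. In sensitive versus vehicle tumors GLDC ran from -0.13 to 0.37 and MTHFD2 minus MTHFD1 from -0.16 to 0.01 without 1 mouse. In resistant versus sensitive tumors SHMT2 was -0.01 with no filter and -0.02 to 0.06 without 1 mouse, MTHFD1L was -0.0018 with weights per mouse and -0.12 to 0.28 without 1 mouse, and MTHFD1L minus MTHFD1 was -0.45 to 0.0033 without 1 mouse. In resistant versus vehicle tumors MTHFD1L was -0.29 to 0.04 without 1 mouse, and MTHFD1L minus MTHFD1 was -0.01 with a pseudocount of 0.1, -0.09 with the B libraries alone and -0.17 to 0.11 without 1 mouse. The cause of these shifts was not tested.

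A minus B differences, averaged per group, correlated between groups at -0.00 to -0.05 across 14079 genes, so no pattern of the letters was shared between groups over all genes. A letter effect in some genes or mice is not excluded by this, and what the letters stand for is not stated. With the letter as a replicate block over 26 libraries, 2754 genes were called in sensitive versus vehicle, 3468 in resistant versus sensitive and 6310 in resistant versus vehicle tumors, and 4, 2 and 7 members in these comparisons. PSAT1 was not tested under the filter at 5 TPM. TPM carries no depth, so the precision of the low genes PSAT1, GLDC and MTHFD1L is known only from the spread between mice and libraries.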
